A study of Mus musculus with 2 samples.

Results

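The replication-dependent histone genes of the mouse stand in dense clusters, and DNA methylation across these clusters was measured on 2 tiling arrays, 1 of untreated mouse embryonic fibroblasts and 1 of fibroblasts given thymidine. Probes belonged to the clusters when their mm9 start lay in one of 3 windows: 21.8 to 22.15 Mb of chromosome 13 (block A of histone cluster 1), 23.6 to 23.87 Mb of chromosome 13 (block B of histone cluster 1), or 96.02 to 96.09 Mb of chromosome 3 (histone cluster 2). The windows held 713 of the 174638 genomic probes of the array (0.408%), in 42 of its 22170 tiled regions. Block A contributed 150 probes in 15 regions, block B 397 probes in 24 regions and cluster 2 166 probes in 3 regions. The files name no genes, so the windows could not be checked against gene names, and no probe was assigned to a gene.

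The cells, mouse embryonic fibroblasts (MEFs), are connective tissue cells, here taken at E14.5 from embryos of the C57BL/6 strain. Magnetic beads against CD45, CD31, CD41 and c-Kit, surface proteins found on blood progenitors, had been used to remove potential blood-forming cells. They were seeded on mitomycin-treated MEF feeders. The untreated group (1 array) had no agent, and the thymidine group (1 array) had 100 µM thymidine in the medium for 2 days. The treated sample's source name also mentions CD45 sorting, and its input is described in one label as MEFs and in another as thymidine-treated, so the origin of that input is not settled. No removal of feeder cells is described. Sonicated DNA of 200 to 1000 bp was precipitated with an antibody against 5-methylcytosine and labelled with Cy5, and input DNA was labelled with Cy3. Each value below is the log2 ratio of Cy5 to Cy3 for a probe, centred on the median of its array, so 0 is the array's typical probe and a higher value is more precipitate per input. With 1 array per group there was no replicate check and no test, and treatment, sort, input origin and array cannot be told apart.

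Replication-dependent histone genes supply the core histones H2A, H2B, H3 and H4 and the linker histone H1 that package newly made DNA, and they are expressed mainly in S phase. Most lack introns, and their messages end in a stem-loop in place of a poly(A) tail. Their copies are nearly identical in coding sequence, and H2A and H2B genes often stand as divergent pairs that share a promoter. High concentrations of thymidine deplete the dCTP pool and are used to hold cells in S phase. Methylation of cytosine in mammals falls mainly on the dinucleotide CG, and an antibody against 5-methylcytosine captures fragments according to how many methylated CG sites they carry.

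In the RefSeq gene table of the GRCm38.p6 build, a different build from that of the probes, the clusters held 64 histone genes or pseudogenes, 62 of them listed as protein coding. Block A, from H2bc13 to H2bc11 in that order, held 24 and block B, from H4c8 to H1f1, held 30, while cluster 2 held 10. Over all blocks there were 6 H1, 18 H2A, 16 H2B, 12 H3 and 12 H4 genes. H2A and H2B genes were direct neighbours 14 times, 8 of them in block A. Within the span of block A 40 other genes are listed, 31 of them tRNA genes, with Zfp184, Pom121l2 and Prss16 as the protein-coding ones. Within block B 4 others are listed, among them Hfe, which regulates iron uptake. In this gene order the blocks were divided at the vomeronasal receptor genes (the Vmn1r family), which are expressed in sensory neurons of the nose. H2ac1 and H2bc1, which stand apart, were left out, and all histone genes of chromosome 3 were counted as cluster 2. These parts bear the names of the windows but were not matched to them by position.

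Of the 64 genes, 57 had a promoter window in the RefSeq promoter table, from 250 bases before to 50 bases after the start, 300 bases in all. Their upstream sequence is shown because the number of CG sites sets what the antibody can capture at these genes. One promoter was taken per histone class, the middle gene by CG count, or the lower of the middle pair where the class has an even number of promoters, and the 200 bases before the start are printed 5′ to 3′ with every CG in capitals. They lie at chr13:23763468-23763667 (H1f1, plus strand), chr3:96219685-96219884 (H2ac21, plus strand), chr13:22042998-22043197 (H2bc11, plus strand), chr13:23575563-23575762 (H3c4, plus strand) and chr13:21811546-21811745 (H4c17, plus strand) in GRCm38.p6. None of these positions was converted to mm9.
H1f1: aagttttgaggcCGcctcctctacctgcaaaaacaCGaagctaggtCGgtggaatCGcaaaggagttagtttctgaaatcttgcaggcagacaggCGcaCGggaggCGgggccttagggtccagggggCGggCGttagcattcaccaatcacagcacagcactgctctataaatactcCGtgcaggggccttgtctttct
H2ac21: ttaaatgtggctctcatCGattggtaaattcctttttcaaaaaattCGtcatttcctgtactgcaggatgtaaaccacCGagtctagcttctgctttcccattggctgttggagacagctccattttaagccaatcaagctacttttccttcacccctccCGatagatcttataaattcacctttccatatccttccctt
H2bc11: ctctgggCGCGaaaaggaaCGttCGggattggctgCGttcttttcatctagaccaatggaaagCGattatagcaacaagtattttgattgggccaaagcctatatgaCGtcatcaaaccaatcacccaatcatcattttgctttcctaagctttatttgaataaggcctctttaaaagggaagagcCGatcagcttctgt
H3c4: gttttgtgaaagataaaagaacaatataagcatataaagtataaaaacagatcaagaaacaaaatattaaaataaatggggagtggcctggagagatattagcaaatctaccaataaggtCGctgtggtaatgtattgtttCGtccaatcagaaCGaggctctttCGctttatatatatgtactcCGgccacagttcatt
H4c17: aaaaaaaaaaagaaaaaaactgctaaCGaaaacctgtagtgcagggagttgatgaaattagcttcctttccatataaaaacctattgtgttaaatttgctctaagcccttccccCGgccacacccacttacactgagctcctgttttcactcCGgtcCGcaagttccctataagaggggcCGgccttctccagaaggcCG
The H1f1 sequence held 10 CG sites, H2bc11 8, H4c17 6, H3c4 5 and H2ac21 4.

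Over the whole 300-base window, the 57 histone promoters held a median of 12 CG sites, with a range from 3 to 41, against a median of 7 over all 27025 mouse promoters of the table. Their median GC content was 45.7% against 52.7% for all promoters. It was 45% in block A and 45.7% in block B, so the CG sites there lay in a sequence poorer in G and C. In cluster 2 it was 55.8%, above that of all promoters. Cluster 2 promoters also had the most CG sites, a median of 21 over 8 promoters, against 13 in block A and 10 in block B. Letters of known promoter elements, counted anywhere in the 300-base window, differed by histone class. TATAAA, the letters of the TATA box read on the gene's strand, stood in 27 of 57 histone promoters (47.4%) against 8.88% of all promoters. Their distance from the start was not used, so a match need not be a TATA box. CCAAT on either strand, the site read by the factor NF-Y, stood in 49 of 57 (86.0%) against 37.9% of all. It was in every one of the 6 H1, 16 H2A, 14 H2B and 10 H3 promoters, and in 3 of 11 H4 promoters. TTTGCAT on either strand, the core of the octamer element known from H2B promoters, stood in 5 of 14 H2B promoters (35.7%) and 5 of 16 H2A promoters (31.2%) against 4.59% of all. The H1 and H3 promoters did not hold these letters in the window. A match of one motif may overlap a match of another, and a match is a description of letters, not of a bound site.

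**Figure D1:**
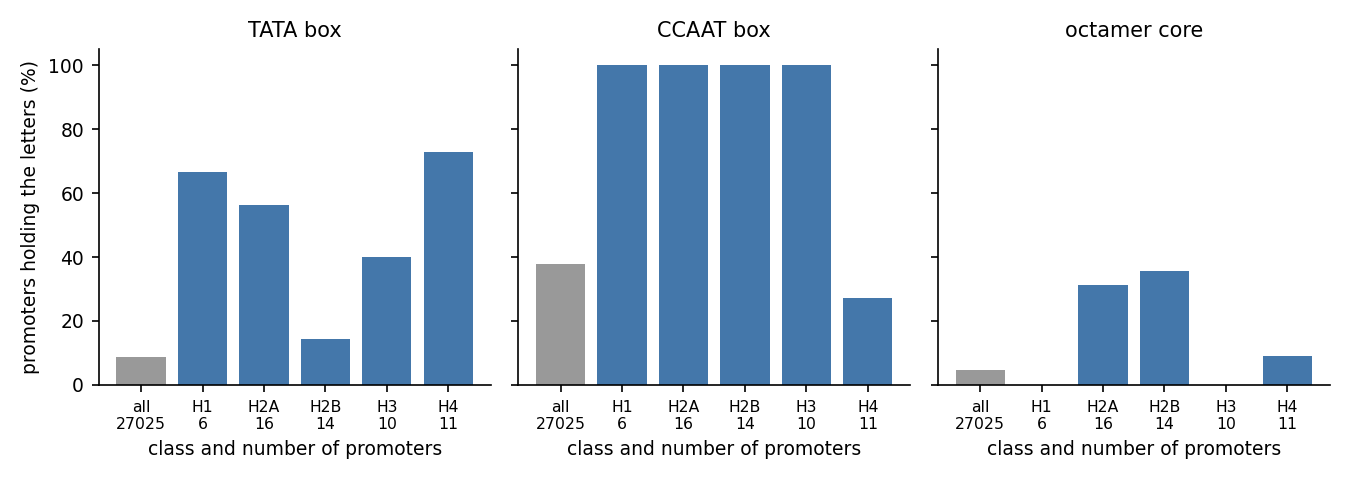
Share of RefSeq promoter windows (percent, vertical axis) that hold the letters of the TATA box, the CCAAT box or the octamer core, for all promoters (grey) and for the histone promoters of each class (blue), with the number of promoters under each bar. CCAAT stands in every H1, H2A, H2B and H3 promoter and in 3 of 11 H4 promoters. TATAAA, at any place in the window, is most frequent in H4 promoters (72.7%). Among the histone classes it is least frequent in H2B promoters (14.3%).

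Some tiled regions of the histone windows held more probes than most regions of the array. Across the array a tiled region held a median of 8 probes, and 10 regions held 50 or more. The histone windows held 4 of those 10, with 74, 74, 56 and 97 probes, 301 probes together. They spanned 18158, 16516, 14523 and 25935 bp, so their counts go with their length, and probe spacing was not compared. Histone probes were also longer than usual, since 33.2% were of the minimum length of 45 bases against 50% of the other probes. In block B 26.2% of probes had 45 bases, in cluster 2 37.3% and in block A 47.3%.

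The comparison required an input signal well above background on both arrays, which kept 525 of the 713 histone probes (73.6%) against 81.6% of the array. The share kept was 81.3% in block A, 70.3% in block B and 74.7% in cluster 2. Of the 188 probes left out, the input was not well above background on the untreated array for 120 and on the thymidine array for 187, with 119 dim on both. Longer probes were lost most often, since 38.2% of histone probes of 58 to 60 bases were kept and 94.1% of those of 45 bases. Other array probes of the same lengths had like shares, 42.4% and 93.5%. Of the 525 probes kept, 416 also had a precipitate signal well above background on both arrays. No kept probe was saturated.

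The design sets thymidine-treated against untreated cells, and at the level of whole clusters the arrays gave almost the same values. The 525 histone probes had a median log2 ratio of -0.06 untreated and of -0.08 with thymidine, where the array median is 0 by construction. The median difference, thymidine minus untreated, was 0.07, equal to the median of 0.07 over all kept probes of the array. The input channel differed by a median of -0.01 and the precipitate by -0.01 after centring, against 0.01 and 0.01 for the array. The histone probes thus lay near the middle of the array in ratio, and their median difference was that of the array. It turned to -0.02 after quantile normalisation of the ratios, where the array's median was 0.00, and to -0.04 in the authors' deposited table, where the array's was -0.05.

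By window, block A had median log2 ratios of -0.02 untreated and -0.06 with thymidine, with a median difference of 0.05. Block B had -0.03 and -0.06, with a median difference of 0.07. Cluster 2 was lower on both arrays, at -0.22 and -0.14, with a median difference of 0.09. The SD of the difference among single probes was 0.42 in block A, 0.40 in block B and 0.35 in cluster 2. After quantile normalisation the median differences were -0.060 in block A, -0.015 in block B and -0.018 in cluster 2. In the authors' deposited table they were -0.094, -0.038 and 0.0084. The sign of these small differences therefore changes with the setting. Across probes, ratios on both arrays correlated at r = 0.94 for the 525 histone probes and 0.93 for the array, a description over probes of the same 2 hybridisations.

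Histone probes were dim in both channels. Their median centred log2 input signal was -0.25 on the untreated and -0.31 on the thymidine array, and their precipitate signal was -0.49 on both. Block B was the dimmest, with input at -0.43 and -0.49 and precipitate at -0.63 and -0.71. Block A was close to the array in input, at -0.03 and 0.03. The high share of long probes in block B moves with these signals, and its part in them was not tested.

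The sequence beside the windows gave the comparators. The interval between block A and block B, with 225 kept probes in 43 regions, had median log2 ratios of -0.38 untreated and -0.24 with thymidine, lower on both arrays than any of the 3 histone windows. The flank of 0.5 Mb outside block A, with 101 kept probes, had -0.09 and -0.14, and that outside block B, with 41 kept probes, had -0.08 and -0.25. The flanks of cluster 2 had -0.04 and 0.13 below it (117 probes) and -0.09 and -0.07 above it (100 probes). Median differences in these comparators ran from -0.06 outside block B to 0.13 above cluster 2, a range that contains the values of all 3 windows.

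**Figure D2:**
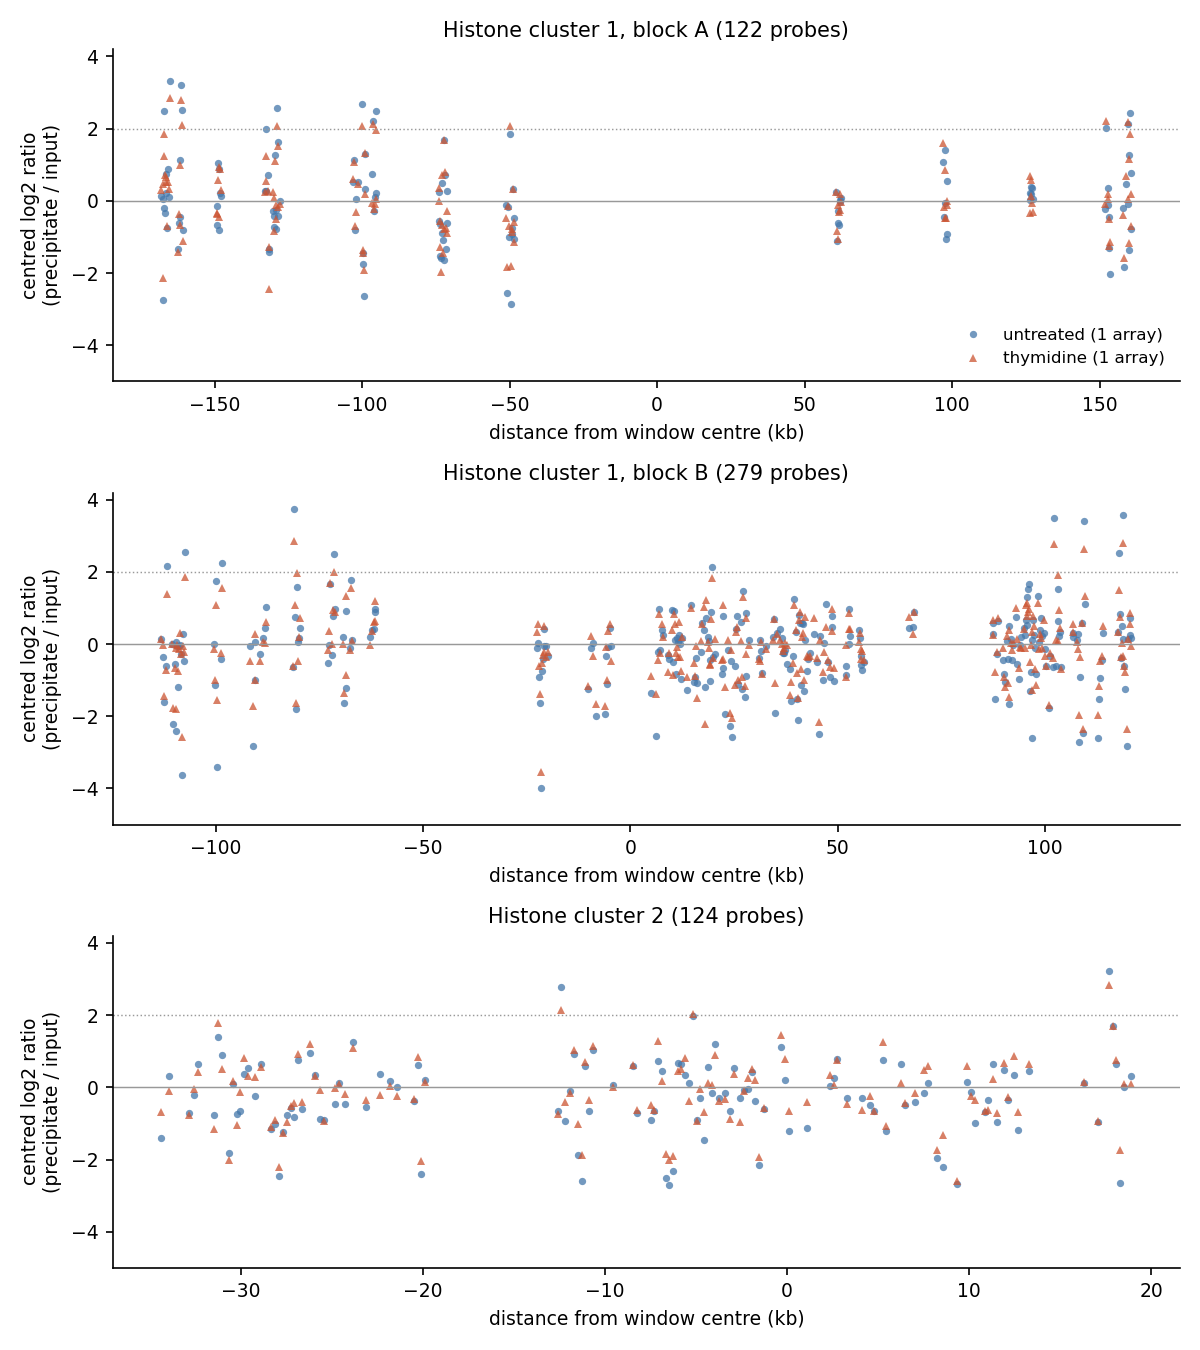
Centred log2 ratio of precipitate to input (vertical axis) for each kept probe of block A (122 probes), block B (279 probes) and cluster 2 (124 probes), by distance from the centre of the window in kb, on the untreated array (circles) and the thymidine array (triangles). Most probes lie around 0 on both arrays, and single probes stand above the dotted line at 2 in all 3 windows, with neighbours that do not.

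Within the windows the ratios of neighbouring probes were nearly uncorrelated. For 331 pairs of adjacent kept probes the log2 ratios of the pair correlated at 0.01 untreated and at 0.03 with thymidine, against 0.22 on each over all adjacent pairs of the array. Cluster 2 by itself had 0.11 and 0.090. Values as low were found beside the windows, with 0.0082 and -0.0075 in the lower flank of cluster 2, 0.11 and -0.068 in its upper flank and 0.078 and -0.16 outside block B. These pairs share fragments, since the sheared DNA was longer than the probe spacing, and the values are a description without a test. In the authors' deposited table the correlations of the same pairs were 0.63 and 0.64, against 0.74 and 0.74 for the array.

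In the processed signals the distribution of ratios in the histone windows was wide at both ends. In untreated cells 93 of 525 probes (17.7%) had a log2 ratio of -1 or less, against 15.0% of the array, and 57 (10.9%) had a ratio of 1 or more, against 7.17%. With thymidine 75 probes (14.3%) lay at -1 or less, against 11.3% of the array, and 61 (11.6%) at 1 or more, against 7.60%. The low counts were 23 untreated and 14 with thymidine after normexp, where the array had 3.83% and 2.25%, and 60 and 37 after loess, where it had 9.89% and 6.31%. In the authors' deposited table they were 20 and 18 of 525, where the array had 4.15% and 4.18%. The surplus of low ratios was thus absent in that table. The cause of these changes was not tested. The surplus of high ratios was concentrated in block A, where 23 of 122 probes (18.9%) reached 1 untreated, against 25 of 279 (8.96%) in block B and 9 of 124 (7.26%) in cluster 2. In the interval between the blocks 4.44% reached 1, and in the outer flanks of blocks A and B 2.97% and 2.44%. In the flanks of cluster 2 the share was 10.3% below and 13% above it, higher than in block B and in cluster 2.

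The far upper tail held many histone probes for the size of the windows. A mean log2 ratio of 2 or more over both arrays, a threshold chosen after the values were seen, was reached by 21 of 525 histone probes (4.00%) against 0.290% of all kept probes. Of the array's 18 probes with a mean ratio of 3 or more (0.0126% of kept probes), 6 were in the histone windows, which hold 0.368% of kept probes. By window the 21 were 11 of 122 in block A (9.02%), 7 of 279 in block B (2.51%) and 3 of 124 in cluster 2 (2.42%). Among the comparators, the interval between the blocks, both outer flanks and the lower flank of cluster 2 held 0, and the upper flank of cluster 2 held 1. The value nearest the threshold was 2.01 on the inside and 1.98 on the outside. The count was 8 histone probes (1.52%) after normexp background correction, 10 (1.90%) after loess and 1 (0.190%) in the authors' deposited table, and the cause was not tested. The shares of the array in those settings were 0.0519%, 0.203% and 0.00491%.

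The 21 probes, numbered P1 to P21 in order of position with block A first, were spread over 15 of the 42 regions. All 21 were 45 bases long, the minimum of the design, against 249 of the 393 other array probes past the same threshold (63.4%). Most of them were isolated in sequence, but P3, P5, P16 and P21 each had a kept probe with a mean ratio of 1 or more within 300 bp. The only such neighbour of P21 had log2 ratios of 1.71 untreated and 1.69 with thymidine. The 32 kept probes within 300 bp of them had median log2 ratios of -0.21 untreated and -0.15 with thymidine, near those of the windows as a whole. All 21 had a precipitate signal well above background on both arrays. So did all 393 other array probes past the threshold, so this does not set the 21 apart. Of the 21, 2 were the first or last probe of their region (9.52%), against 60 of 525 among all kept histone probes (11.4%).

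The highest ratio of the windows belonged to P13, in block B at chr13:23653971-23654015 (mm9), with a log2 ratio of 3.75 untreated and 2.84 with thymidine. P18 at chr13:23853959-23854003 had 3.58 and 2.79, P15 at chr13:23837241-23837285 had 3.51 and 2.76, and P16 at chr13:23844429-23844473 had 3.40 and 2.63. In block A the highest was P2 at chr13:21809745-21809789, with 3.33 and 2.84. Its neighbour region held P3 at chr13:21813581-21813625, with 3.21 and 2.78. In cluster 2 the highest was P21 at chr3:96072686-96072730, with 3.23 and 2.84. Each of these 7 probes was lower on the thymidine array and had a log2 ratio of 2.63 or higher on both arrays.

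As a class the 21 probes had lower ratios on the thymidine array. Their median log2 ratio was 2.54 untreated and 2.14 with thymidine, and the median difference was -0.53, with 18 of 21 below 0. The 393 other array probes past the threshold had medians of 2.20 and 2.21, a median difference of 0.02 and 47.1% below 0. These classes were not matched for signal, and the 21 were the brighter. On the untreated array their median centred log2 input was 0.87, against -0.48 for the 393. Their median precipitate there was 3.49, against 1.78. The 504 remaining histone probes had a median difference of 0.08. For the same 21 probes the median difference was -0.28 in the authors' deposited table. With 1 array per group the difference between these classes was not tested. The 3 probes of the class that were not lower were P9 (2.03 untreated, 2.22 with thymidine), P10 (2.13 and 2.19) and P20 (1.97 and 2.04). The lowest difference of the class, -1.01, was that of P17 at chr13:23852930-23852974, with log2 ratios of 2.52 and 1.51.

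The difference between the arrays was larger in the input channel than in the precipitate. The centred log2 input signal of the 21 probes differed by a median of 0.63, thymidine minus untreated, with a range from -0.02 to 0.93, while their precipitate signal differed by a median of -0.03, with a range from -0.28 to 0.18. Other array probes of high ratio had a median input difference of 0.16 and a median precipitate difference of 0.10. An input difference of 0.5 or more was present in 14 of the 21, against 34 of the 393 others (8.65%) and 2.82% of the array. Put from the side of the array, 48 probes combined a mean ratio of 2 or more with an input difference of 0.5 or more (0.0337% of kept probes), and 14 of these 48 (29.2%) lay in the histone windows. By window they were 6 in block A, 7 in block B and 1 in cluster 2.

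**Figure D3:**
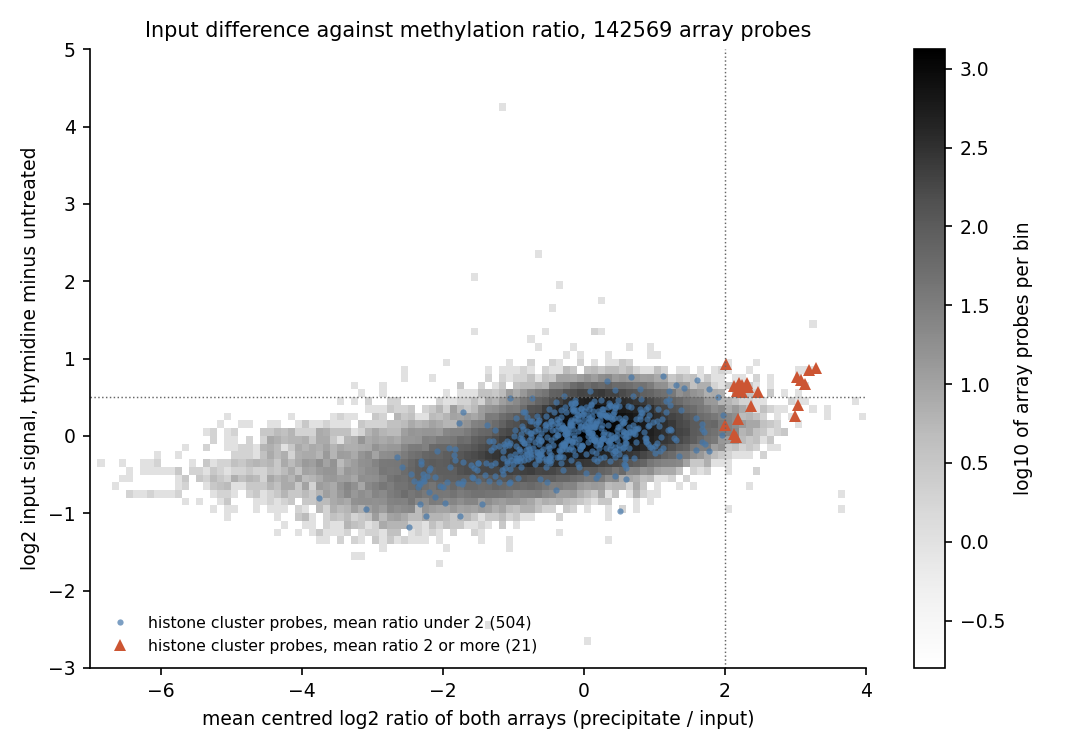
Difference of the centred log2 input signal, thymidine minus untreated (vertical axis), against the mean centred log2 ratio of both arrays (horizontal axis) for 142569 array probes (grey bins, darker for more probes), the 504 histone probes with a mean ratio under 2 (circles) and the 21 with 2 or more (triangles). The circles lie within the cloud of the array, and 14 of the 21 triangles lie above the dotted line at an input difference of 0.5.

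The raw signals show the same without background subtraction or centring. For P13 the median spot signal of the input was 127 scanner units on the untreated and 280.5 on the thymidine array, while the precipitate was 1483.5 and 1377.5. P17 had input signals of 773 and 1827 and precipitate signals of 4121 and 3467. P16 had input signals of 251 and 509.5 and precipitate signals of 2330 and 2100. In each of these the input was higher and the precipitate lower on the thymidine array. The 21 probes had a median raw input ratio of 1.87 between the arrays, with a range from 1.31 to 2.36, where the median of all kept probes was 1.24. Their median raw precipitate ratio was 0.97, where that of all kept probes was 1.04. Local background of the input lay between 10 and 12.5 units at these spots, so even the dimmest input of the class, 47 units at P19 untreated, stood above it.

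**Figure D4:**
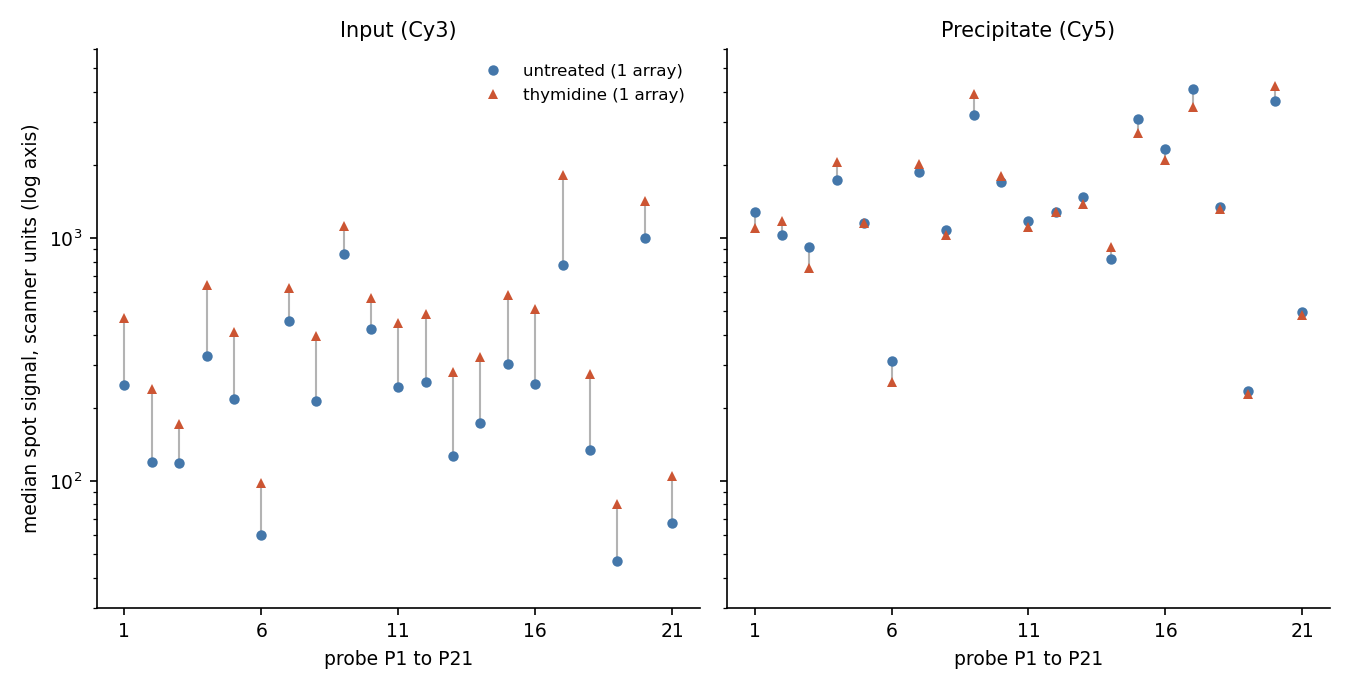
Raw median spot signal (scanner units, log axis) of probes P1 to P21 in the input channel (left) and the precipitate channel (right), with circles for the untreated and triangles for the thymidine array, 1 array each, joined by a line for each probe. In the input every triangle is above its circle, by 1.31 to 2.36 times, and in the precipitate 9 triangles are above and 12 below their circles, by at most 1.23 times.

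Some of these probes, although kilobases apart, gave nearly the same signals in all 4 measurements. P1, P5, P8 and P11 of block A and P12 of block B, each in a different region, lay within 1.25-fold of each other in every channel of both arrays. Their raw input ran from 214 to 254.5 untreated and from 394 to 488 with thymidine. Their precipitate ran from 1081 to 1282 untreated and from 1029.5 to 1283 with thymidine. Their log2 ratio differences lay between -0.69 and -0.52. P13 and P18 of block B formed another such set, with input signals of 127 and 134.5 untreated and 280.5 and 276.5 with thymidine, and log2 ratio differences of -0.91 and -0.79. P7 and P10 of block A formed the last, with differences of -0.08 and 0.07. In all, 9 of the 21 had such a partner (42.9%), and 378 of the 393 other high-ratio probes had one among themselves (96.2%). A larger group offers more possible partners, so these shares do not show how rare such closeness is. The files hold no probe sequences, so whether the members of a set share sequence, as the coding parts of histone genes do, was not tested.

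The scanner software gives an error of the ratio on each array. Combined as independent errors, these gave an error of the log2 ratio difference of 0.39 to 0.53 for the 21 probes. Of the 21, 1 probe, P17, differed by more than 2 such errors (4.76%, against 2.95% of the array). Among all 525 histone probes 17 did (3.24%). The members were chosen by their ratio on these arrays, and probes of similar sequence would not be independent measurements.

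With these 21 probes left out, which lowers a count of high ratios by construction, 36 of the 504 remaining histone probes (7.14%) had a log2 ratio of 1 or more untreated and 40 (7.94%) with thymidine. Other array probes under the same threshold had 6.90% and 7.33%. An input difference of 0.5 or more was present in 14 histone probes (2.78%), where all 525 counted 28 (5.33%), and in 2.80% of the other array probes under the threshold. An input difference of -0.5 or less was present in 42 (8.33%) against 4.91%. None of these 42 belonged to the class, so the count is the same as among all 525. A ratio difference of -0.5 or less was found for 27 (5.36%) against 4.42%.

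Differences between the arrays for single histone probes were about as frequent as on the array in the upward direction. A difference of 0.5 or more, thymidine minus untreated, was found for 68 of 525 probes (13%) against 11.0% of the array, and a difference of -0.5 or less for 39 (7.43%) against 4.43%. Of the 39 lower probes, 12 belonged to the class of 21, and 36 had a precipitate well above background on both arrays. Of the 68 higher probes, 30 had a mean ratio below -1, and 40 had a precipitate well above background on both arrays. The higher count fell to 24 with normexp, to 42 after quantile normalisation and to 8 in the authors' deposited table, and the lower count to 22 with normexp and to 11 in that table. The array's shares in those settings are not given here.

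A difference of 1 or more was found for 8 probes (1.52%), against 1.07% of the array, and one of -1 or less for 3 (0.571%), against 0.0926%. In single channels, 42 histone probes (8%) had an input difference of -0.5 or less, against 4.91% of the array. A precipitate difference of 0.5 or more was found for 4 (0.762%), against 1.28%, and one of -0.5 or less for 11 (2.10%), against 1.87%. The largest single differences lay partly on dim spots. The highest was 1.86 at chr13:23635238-23635285 in block B, from a log2 ratio of -3.41 to -1.55, with a precipitate not well above background on either array. The lowest was -1.12 at chr13:21843340-21843397 in block A, from -1.33 to -2.45, also without precipitate above background. Of the 5 highest differences 2 had both channels above background. The higher of those was 1.44 at chr13:21808006-21808065 in block A, from -0.20 to 1.23, in the same region as P1 and P2. The other was 1.17 at chr13:23741257-23741301 in block B, from -2.55 to -1.39. Among the 5 lowest differences were those of P17 and P13, at -1.01 and -0.91.

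Taken as regions, the histone clusters had no region that met the rule for a difference between arrays, which asked for a median of 0.5 or more in size and for 80% of probes sharing its sign. Of the 41 histone regions with at least 3 kept probes, 0 were higher, against 0.706% of the array's 21518 such regions, and 0 were lower, against 0.0558%. A share of that size is less than 1 region in 41, so the count of 0 is near the background. Region medians of the difference ran from -0.31 to 0.38, where the 5th and 95th percentiles of the array's regions were -0.21 and 0.35. The median difference was above 0 in 29 of 41 histone regions, and in 13999 of 21518 regions of the array.

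The region with the highest median ratio was in block B at chr13:23662190-23664293, with 0.78 untreated and 0.88 with thymidine over 7 kept probes. It holds P14, and it is followed in level by chr13:23802182-23803786 (0.48 and 0.74, 3 probes) and chr13:23672254-23673592 (0.43 and 0.60, 5 probes) in block B and chr13:21872067-21873574 in block A (0.52 and 0.45, 5 probes). The lowest were chr13:21923668-21926616 in block A (-0.75 and -0.69, 11 probes), chr13:23847506-23849245 in block B (-0.93 and -0.46, 5 probes), chr13:21900944-21903907 in block A (-0.63 and -0.62, 14 probes) and chr13:23724642-23726901 in block B (-0.68 and -0.75, 4 probes). Both blocks held regions of each kind, 1 high and 2 low in block A, and 3 high and 2 low in block B.

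The highest region differences were 0.38 at chr13:23847506-23849245, 0.28 at chr13:22071951-22073393 and 0.27 at chr13:23757067-23764050. In the first, all 5 kept probes were higher on the thymidine array, and the input was lower there by a median of -0.37 with a precipitate difference of 0.07. Its ratio difference was 0.18 after quantile normalisation. In the others the signs were mixed, with 4 of 7 and 12 of 19 probes higher. The median of the former was -0.088 in the authors' deposited table. That of the latter was -0.10 when both channels had to be above background, 0.034 after quantile normalisation and 0.0043 in that table. The lowest region differences were -0.31 at chr13:22101216-22102789 (4 of 6 probes lower), -0.30 at chr13:23645623-23647289 (4 of 4 lower) and -0.22 at chr13:21842072-21843597 (4 of 6 lower). The last was -0.021 with normexp, -0.061 with loess and -0.37 in the authors' deposited table, and the first was -0.12 without the filter on dim probes. In the second of these the input was higher by a median of 0.21 and the precipitate lower, at -0.13. The SD of the difference among probes of a region was 0.16 to 0.59 in these 6 regions, which were picked as the most extreme of 41.

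**Figure D5:**
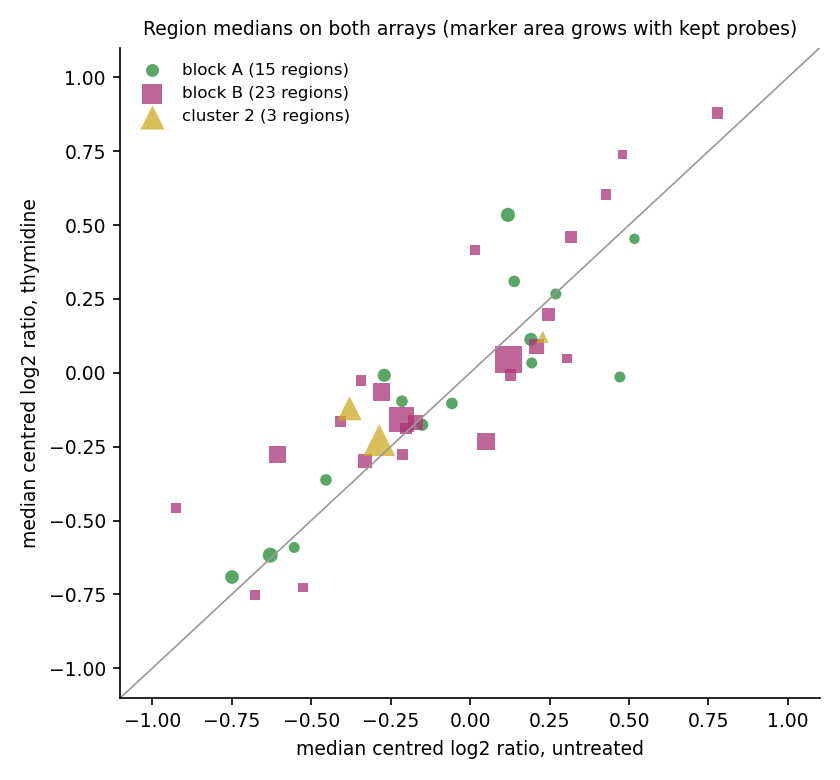
Median centred log2 ratio of each histone region on the untreated array (horizontal axis) and the thymidine array (vertical axis), for the 15 regions of block A, 23 of block B and 3 of cluster 2 with at least 3 kept probes; marker area grows with the number of kept probes, and the line marks equal values. The regions follow the line from -0.93 to 0.88, and no region departs from it by 0.5.

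The 4 regions with 50 or more probes rested on the most data, 41 to 75 kept probes each. In block B they had 44 kept probes with medians of -0.22 and -0.16, and 53 kept probes with 0.12 and 0.04. In cluster 2 they had 41 kept probes with -0.38 and -0.12, and 75 kept probes with -0.29 and -0.23. Median differences were 0.07, 0.06, 0.05 and 0.11, and that of the array was 0.07. The third region of cluster 2, with 8 kept probes, had 0.23 and 0.12 and holds P21.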

How the data were processed

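Methylated DNA immunoprecipitation was read on 2 two-colour arrays, 1 untreated and 1 given thymidine. Per the file headers, the scanner software was Agilent Feature Extraction 11.0.1.1 and the probe positions are of mm9. The deposited intensity values are processed signals, background-subtracted and dye-scaled per the file headers, and raw median signals. The deposited log10 ratio equalled the log10 ratio of processed signals within 1e-06 at 97.4% and 96.9% of probes. The authors' deposited table of log ratios was taken as log2 values from its slope against raw log2 ratios (0.67 and 0.77, r = 0.92 on each array), and had column medians of -0.01 and -0.02. How the authors normalised, centred or smoothed it is not stated in the labels or headers.

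From these, log2(Cy5/Cy3) of processed signals was centred on each array's median over kept probes, and each channel likewise. Control spots (5827 of 180465) and 57 probes with outlier flags were left out, as were probes whose input was not well above background on both arrays (32012). Regions join probes whose starts lie less than 1000 bp apart. The named regions are the 4 highest and 4 lowest by mean ratio and the 3 highest and 3 lowest by difference, among regions with at least 3 kept probes. Probe-level differences were counted from 0.5, and the high-ratio class from a mean ratio of 2. The windows, lists and thresholds were chosen with earlier results of these data known. The list of histone regulators was not analysed here, since no probe was tied to a gene.

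With 1 array per group, the number of arrays limits the precision, and no p-value was computed. Over 19 replicated control probes (211 spots) the median SD within an array was 0.09 and 0.12, and 0.14 for the difference. Promoters and gene order come from RefSeq tables of GRCm38.p6. The planned normexp alternative used median spot and local background signals, with limma 3.58.1 in R 4.3.3 (offset 50). Other steps used Python 3.11.15, numpy 2.4.6 and pandas 2.3.3. The region rule was tested on simulated data.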

Additional observations from a re-analysis of the deposited data

How the results depend on the processing

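No paired analysis was possible because each group had 1 array, and leaving out an array leaves no comparison. Of 102 values under alternative settings of the main results, 78 stayed within the spread of replicated control spots or within 1.5 times the count, and 24 moved beyond it. That spread is of single spots and is wide for a median over many probes. A change of the median difference of the histone clusters from 0.07 to -0.04 thus counted as staying. No difference that had passed a threshold changed sign, which says nothing of the window medians, since none had passed one. Of the 60 alternative medians among these values 14 had the opposite sign to the main one, all of them at most 0.094 in size. With normexp on median signals, probes at -1 or less numbered 23 untreated and 14 with thymidine, where the array had 3.83% and 2.25%. Those at 1 or more with thymidine numbered 39, where the array had 2.88%. Differences of 0.5 or more numbered 24 and of -0.5 or less 22, and high-ratio probes 8, against 0.0519% of the array. With loess, probes at -1 or less numbered 60 and 37, where the array had 9.89% and 6.31%, and high-ratio probes 10, against 0.203%. With quantile normalisation, differences of 0.5 or more numbered 42. Without a filter on dim probes, 156 lay at -1 or less untreated and 111 differed by 0.5 or more. With both channels above background these were 50 and 41, and 36 lay at -1 or less with thymidine. In the authors' deposited table, 20 and 18 lay at -1 or less, 26 and 17 at 1 or more, 8 and 11 differed by 0.5 in size, and 1 was of high ratio. There the median difference was -0.094 in block A and -0.28 for the high-ratio class. The cause of these changes was not tested, apart from the filters, which change the probes counted. The alternatives for the high-ratio class were chosen after seeing the data. Their input difference stayed between 0.54 and 0.66 in every setting run, the raw signals included. Among named regions, 15 of the alternative values moved. Signal over background limits the low ratios most, since only 416 of 525 kept probes had a precipitate well above background on both arrays.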

Other observations

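By level of the ratio, the difference between the arrays was as follows. Histone probes with a mean log2 ratio of -2 or less (25 probes) had a median difference of 0.62, and other array probes in that range 0.49. Between -2 and -1 the medians were 0.25 and 0.31, between -1 and -0.5 they were 0.09 and 0.15, between -0.5 and 0 they were 0.06 and 0.03, between 0 and 0.5 they were -0.02 and -0.0049, and between 0.5 and 1 they were 0.09 and 0.02. Between 1 and 2 the 38 histone probes had a median difference of -0.10 and 23 of them were lower on the thymidine array, where other array probes had 0.04.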
